A study of Mus musculus with 2 samples.

Results

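Replication-dependent histone genes encode the H1, H2A, H2B, H3 and H4 proteins that package newly made DNA. Here they are all genes of the table whose symbol starts with Hist1h, Hist2h, Hist3h or Hist4h. The rule found 68 of the 24421 genes listed, of which 6 encode H1, 18 H2A, 19 H2B, 12 H3 and 13 H4, and it used no measured value. The samples were 2 mouse C57BL/6J RNA-seq libraries of Th1 cells, the interferon-gamma producing helper T cells, one labelled WT and one labelled Chi3l1 KO, the label standing for mice with the chitinase-3-like-1 gene (Chi3l1) knocked out. In both, naive CD4 T cells were stimulated through CD3 and CD28 by antibodies fixed to the plate and given interleukin-12, interleukin-2 and an antibody to interleukin-4. The mice were 6 to 8 weeks old. Each group held 1 library, so no difference below has a replicate check and no p-value is given. Rebuilt reads, counted over all alignments, summed to 70754313 in the library labelled WT and 63090920 in the library labelled KO.

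The targeted gene did not follow the labels. Chi3l1, listed under its symbol Chil1, had a deposited value of 0.94 in the library labelled WT and of 6.66 in the library labelled KO, which correspond to 1 and 103 reads. A value per gene does not tell which exons the reads came from, so it cannot show whether a part of the gene that was not deleted gave them. Whether the labels were exchanged was not tested. Ifng, the gene of interferon-gamma, was at 11.72 in the library labelled WT and 13.04 in the library labelled KO. Each direction below is the library labelled KO minus the library labelled WT. The T cell gene Cd3e was high in both libraries, at 14.94 in the library labelled WT and 14.86 in the library labelled KO. Of the 8 Th1 markers, 3 were higher and 5 lower in the library labelled KO. Cxcr3 was lower past 2-fold, at 8.05 and 6.82 (274 and 116 reads). Some markers of other cells also moved. The 4 neutrophil markers summed to 58.0 normalized counts in the library labelled WT and 4.79 in the library labelled KO, and 3 of them (Elane, S100a8 and S100a9) were at 0 in the library labelled KO. Summed CD8 T cell markers were at 812 and 807, macrophage and monocyte markers at 127 and 170, dendritic cell markers at 73.6 and 117, and NK cell markers at 16.4 and 14.4. Within the CD8 T cell, macrophage and monocyte, dendritic cell and NK cell lists single genes went opposite ways. Cd8a was at 289 and 438 reads but Cd8b1 at 551 and 397. Csf1r was at 97 and 175 reads but Lyz2 at 34 and 2, with Adgre1 at 0 in both. Flt3 was at 18 and 68 reads and Zbtb46 at 14 and 48, but Itgax at 44 and 5. Ncr1 was at 0 and 6 reads but Klrb1c at 17 and 9. The part of these cells in the histone values was not tested. In bulk samples fewer dividing cells and less histone mRNA per cell cannot be told apart.

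The mRNAs of replication-dependent histones are made mainly in S phase, when DNA is copied. Most end at a conserved stem-loop bound by the stem-loop binding protein and carry no poly(A) tail, while some of these genes can also give mRNAs with a tail from a signal further downstream. The libraries were made with oligo-dT beads, which take up RNA with a poly(A) tail, so the values describe the polyadenylated or otherwise captured part of histone mRNA and not the whole pool. The H2A, H2B, H3 and H4 genes lie in clusters and many stand head to head, an H2A gene and an H2B gene sharing the stretch between them as promoter. In the mouse annotation (GRCm38) all Hist1 genes lie on chromosome 13, Hist2 on chromosome 3, Hist3 on chromosome 11 and Hist4 on chromosome 6.

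The stem-loop was searched in the annotated transcripts, since it marks the end that the histone pathway makes. Of 52 members whose annotation reaches past the stop codon, 46 held it, in 8 distinct forms. The commonest form was found in 26 members and is shown for Hist1h2ao, the member with the highest value. A form shared by 7 H4 genes is shown for Hist1h4d, the one member past 2-fold. The other lines show forms found in 6, 2 and 1 members. Capitals mark the 16 bases of the stem-loop, 6 paired bases on each side of a loop of 4, in the sense of the mRNA and in DNA letters. They lie, by GRCm38 and the strand of the gene, at chr13:21810898-21810913 on the plus strand, chr13:23581950-23581965 plus, chr13:23745047-23745062 minus, chr13:22040966-22040981 minus and chr13:23535889-23535904 plus, all after the stop codon.
Hist1h2ao: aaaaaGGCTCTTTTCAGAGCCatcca
Hist1h4d: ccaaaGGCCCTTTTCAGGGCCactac
Hist1h3c: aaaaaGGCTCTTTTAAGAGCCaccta
Hist1h4i: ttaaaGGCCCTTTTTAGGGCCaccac
Hist1h3g: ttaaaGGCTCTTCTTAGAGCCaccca
The annotated transcript of Hist1h2ao ended 31 bases after the stem-loop, whereas that of Hist1h4d ran on for 770 bases. The 6 members with sequence after the stop codon and no stem-loop in it were Hist1h1a, Hist1h2bc, Hist1h2bq, Hist1h2br, Hist2h2be and Hist2h3b. For 15 further members the annotation stops at or within 3 bases of the stop codon, where no search is possible.

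The histone genes as a group were a small part of these libraries. The deposited values are read here as log2(normalized count + 1), and all 68 members together summed to 55308 normalized counts in the library labelled WT and 41535 in the library labelled KO. That was 0.0808% and 0.0682% of all normalized counts. H2A genes gave 47.4% of the histone sum in the library labelled WT, H3 genes 32.0%, H2B genes 11.3%, H4 genes 6.75% and H1 genes 2.64%. In the library labelled KO the shares were 44.6%, 29.6%, 15.7%, 7.30% and 2.80%, in the same order of types. Values of genes that share sequence are not separate, because the authors counted reads with several alignments as well as unique ones.

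Of the 68 members, 62 reached a mean log2 value of 5 and are compared below. The other 6 were Hist1h1a, an H1 gene with 22 reads in the library labelled WT and 4 in the library labelled KO, Hist2h2ab with 3 reads and 1 read, Hist4h4 with 3 and 4, the H2B pseudogene Hist3h2bb-ps with 1 and 7, and Hist1h1t and Hist1h2aa, which had 0 reads in both. Hist1h1t and Hist1h2aa are histone genes known from the testis. Read numbers were rebuilt from the steps between low values, and 3 reads correspond to a deposited value of 1.96 in either library.

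**Figure D1:**
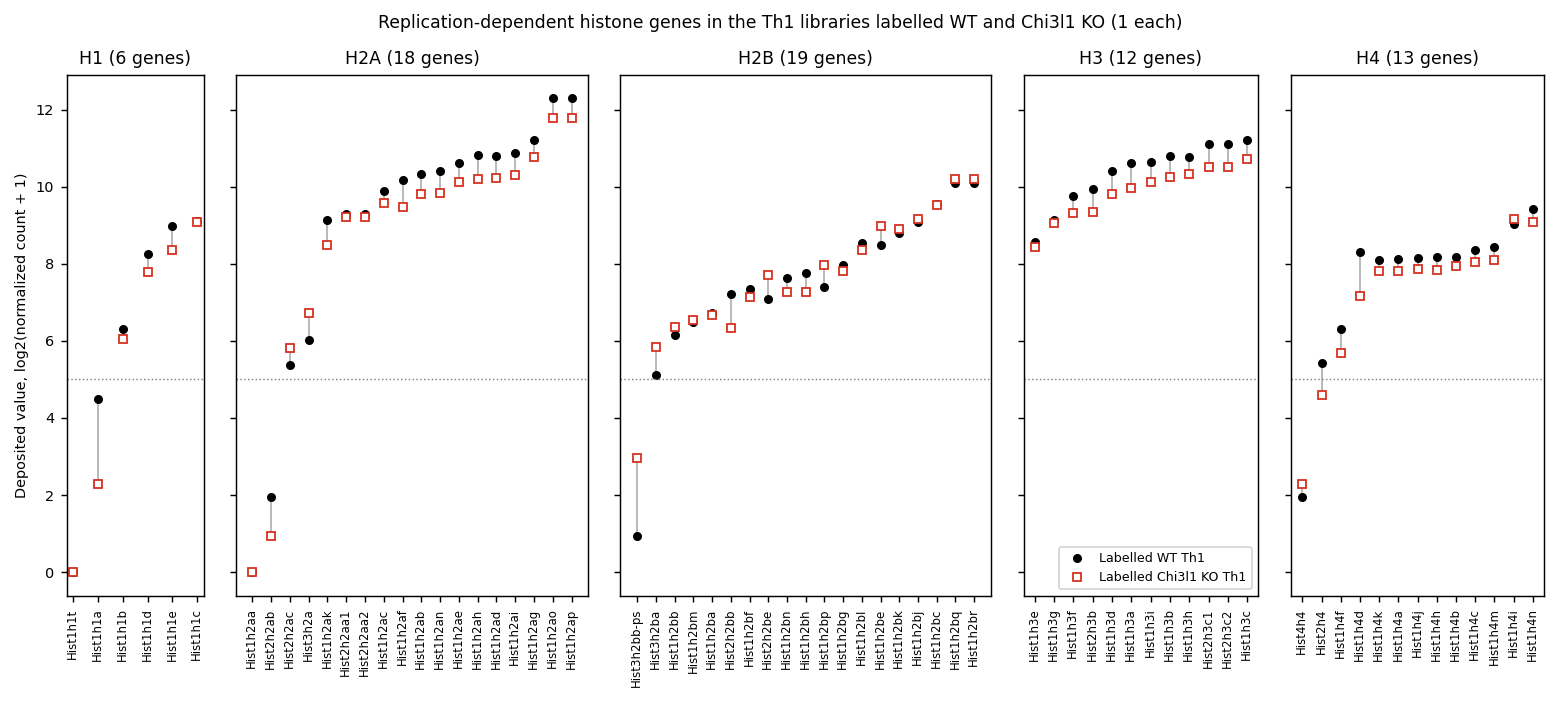
Deposited value of each of the 68 members, log2(normalized count + 1), in the library labelled WT (filled circles) and in the library labelled Chi3l1 KO (open squares), 1 library each, ordered within each histone type by their mean; the dotted line is the floor of 5. Most H2A and H3 genes sit lower in the library labelled KO, while the H2B symbols cross.

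Most members were somewhat lower in the library labelled KO, and few by much. The median difference over the 62 members was -0.33 on the log2 scale, against -0.005 over all 12059 genes at the same floor. Of the members, 49 were lower and 13 higher, while 50.6% of all genes at the floor were lower. In the library labelled KO 0 members were at least 2-fold higher and 1 was at least 2-fold lower, against 2.03% and 2.50% of all genes. An exact 95% binomial interval on the rebuilt reads covers counting error only, and reads with several alignments are not independent in it. This interval lay below 0 for 37 members, above 0 for 5 and held 0 for 20. The same count was not made over all genes, so these numbers do not set the members apart from other genes.

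The difference went with GC content, which is high in the histone genes. This trend was read from better expressed genes only, those reaching 8 on the log2 scale under the WT label and under the KO label. They formed 20 bins of 428 or 429 genes. The median difference went from 0.23 in the bin of lowest GC content (median 38.8%) to -0.45 in the bin of highest GC content (median 60.9%). Members with lower values were corrected with the same trend. The members' median transcript GC content was 58.1%, against 49.9% over all genes at the floor. With the median of genes of like GC content subtracted, the members' median was -0.06, with 36 lower and 26 higher. With the same done on GC content of the coding sequence, it was 0.07. The median of the whole group, and under the coding correction its sign, thus cannot be told apart from the GC trend, whose cause was not tested.

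The core particle is built from an H2A-H2B dimer on either side of an H3-H4 tetramer, and the genes of the 4 core types did not move alike. H3 genes were lower in 12 of 12, with a median of -0.53 and a range of -0.66 to -0.08. H2A genes were lower in 14 of 16, with a median of -0.52. H4 genes were lower in 11 of 12, with a median of -0.32, and the 4 H1 genes at the floor had a median of -0.36. H2B genes were higher in 10 of 18 and lower in 8, with a median of 0.06 and a range of -0.87 to 0.71. With the transcript GC trend removed, the medians were -0.33 for H1, -0.10 for H2A, 0.29 for H2B, -0.17 for H3 and -0.07 for H4, and with the coding GC trend removed they were -0.08, -0.11, 0.44, -0.13 and 0.08. H2B had the highest median of the 5 types under each of these settings. Summed normalized counts gave the same order of types at both ends. H2A went from 26209 to 18524 (log2 ratio -0.50), H3 from 17679 to 12290 (-0.52), H4 from 3735 to 3034 (-0.30) and H1 from 1459 to 1162 (-0.33), while H2B went from 6225 to 6524 (0.07).

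**Figure D2:**
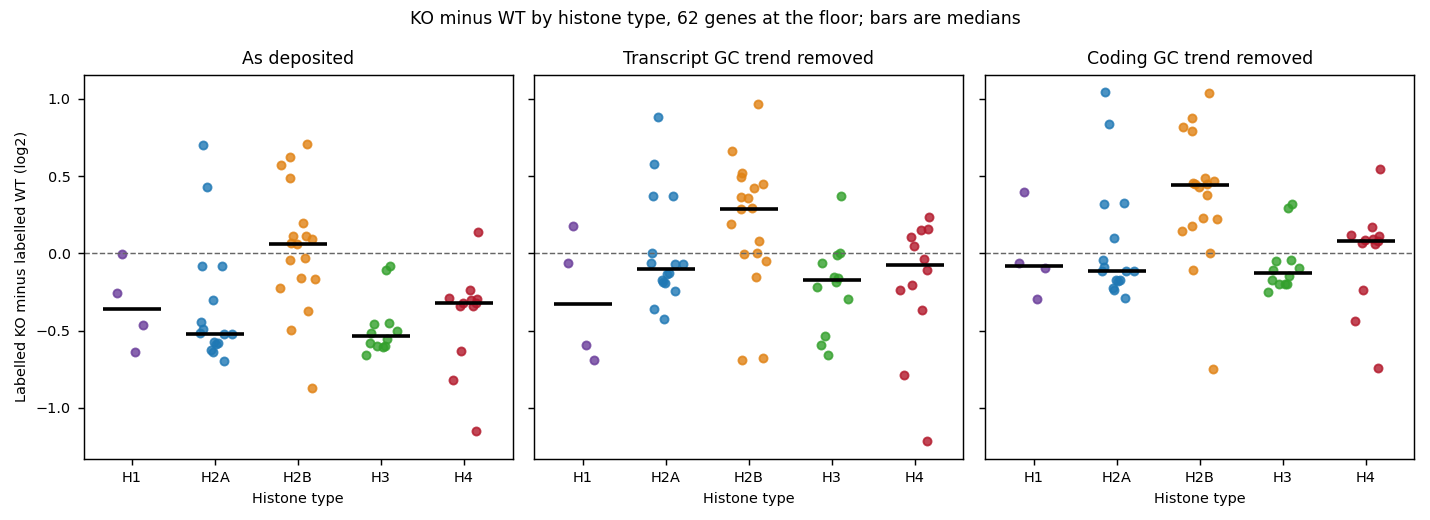
Difference (library labelled KO minus library labelled WT, log2) of the 62 members at the floor by histone type, as deposited, after removal of the transcript GC trend and after removal of the coding GC trend; points are genes, bars are medians and the dashed line is 0. The H2B median is the highest in each panel, at 0.06, 0.29 and 0.44.

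H3 genes were the most alike. Hist1h3c, the highest, had values of 11.22 in the library labelled WT and 10.71 in the library labelled KO, a difference of -0.50 (counting interval -0.59 to -0.41). Hist2h3c1 and Hist2h3c2 had identical coding sequences and equal values, 11.12 and 10.52, and cannot be told apart. Hist1h3h went from 10.78 to 10.33. These 4 genes held 48.6% of the H3 sum in the library labelled WT and 48.0% in the library labelled KO. The lowest difference was that of Hist1h3a, which went from 10.62 to 9.96 (-0.66, interval -0.77 to -0.54), and the highest that of Hist1h3g, at 9.14 and 9.06 (-0.08, interval -0.25 to 0.09). Per kilobase of longest annotated transcript, the H3 levels of the library labelled WT ran from 450 normalized counts (Hist1h3e) to 4285 (Hist1h3h). The 12 H3 genes encode only 2 distinct proteins, 1 shared by 8 genes and 1 by 4, and a median of 71.6% of the 100-base windows of a coding sequence was also found in another gene.

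H2A genes held the highest values of all members. Hist1h2ao and Hist1h2ap share 1 coding sequence of 393 bases and had equal values, 12.30 in the library labelled WT and 11.78 in the library labelled KO. Each stood for 5208 and 3634 reads, and if both rows count the same alignments these are not separate reads. Their difference was -0.52 (interval -0.58 to -0.46). Together they held 38.4% of the H2A sum in the library labelled WT and 37.9% in the library labelled KO. Hist1h2ag went from 11.22 to 10.78 (-0.45) and Hist1h2ai from 10.88 to 10.29 (-0.58). The lowest difference was that of Hist1h2af, at 10.17 and 9.47 (-0.69, interval -0.83 to -0.56). Among H2A genes, 9 of 18 encode the same protein and a median of 85.9% of coding windows was shared, so similar values within H2A are not independent.

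The 4 H2A genes at the floor outside the chromosome 13 cluster lay above all H2A genes in it, whose highest difference was -0.30 (Hist1h2ac). Hist2h2aa1 and Hist2h2aa2, a second pair with identical coding sequences, were both at 9.31 in the library labelled WT and at 9.22 and 9.23 in the library labelled KO, with intervals that held 0. Hist2h2ac had 5.38 and 5.81 (42 and 57 reads), with an interval of -0.16 to 1.05. Hist3h2a, from the small cluster on chromosome 11, had 6.02 in the library labelled WT and 6.72 in the library labelled KO, or 66 and 108 reads. Its difference of 0.70 (interval 0.25 to 1.17) was the highest among H2A genes. It overlaps Trim17 on the same strand over 708 bases, and Trim17 itself was low, at 3.12 and 2.76.

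H2B genes had lower values than H2A and H3 genes and spread to either side of 0. Hist1h2bq and Hist1h2br share 1 coding sequence and had equal values, 10.09 in the library labelled WT and 10.21 in the library labelled KO, with an interval that just held 0 (-0.002 to 0.23). Hist1h2bc was at 9.55 and 9.52, and Hist1h2bj at 9.09 and 9.16, both with intervals that held 0. Hist2h2bb went from 7.21 to 6.35 and was the lowest (-0.87, interval -1.28 to -0.48). Hist3h2ba was the highest, at 5.13 and 5.84 (0.71, interval 0.10 to 1.37) on 35 and 58 reads. Hist1h2ba, an H2B gene known from the testis, stood at 6.73 and 6.68, with an interval that held 0. Of its coding windows 27.4% were also found in other genes, so reads counted for it could come from those genes.

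Beyond these, 3 H2B genes had intervals above 0, named here after their values were seen. Hist2h2be went from 138 to 215 reads, a difference of 0.63 (interval 0.32 to 0.96). Hist1h2bp went from 173 to 259 reads (0.57, interval 0.30 to 0.87). Hist1h2be went from 372 to 525 reads (0.49, interval 0.30 to 0.69). With Hist3h2a and Hist3h2ba these are the 5 members whose interval lay above 0, and each stayed above 0 when either GC trend was removed. Hist1h2be shares 496 annotated bases on the same strand with Hist1h1e, an H1 gene that went from 8.99 to 8.36, so reads from that stretch could be counted for either gene.

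H4 genes all encode the same protein, yet their coding sequences are mostly distinct, with 12 sequences among 13 genes and a median of 60.1% of windows shared. Hist1h4n, the highest, went from 9.42 to 9.10 (-0.32, interval -0.48 to -0.16). Hist1h4m, with the same coding sequence, had other values, 8.44 and 8.10, and a like difference (-0.34). Hist1h4i was at 9.03 and 9.17 and was the one H4 gene that was not lower (0.14, interval -0.03 to 0.31). Hist1h4c went from 8.36 to 8.06. Most H4 genes stood close together, and Hist1h4d stood apart.

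Hist1h4d was the one member past 2-fold. It had 327 reads in the library labelled WT and 147 in the library labelled KO, or values of 8.31 and 7.16. The difference was -1.15 (interval -1.45 to -0.87), and it was -1.21 with the transcript GC trend and -0.74 with the coding GC trend removed. No 100-base window of its coding sequence occurred unchanged in another gene. With up to 2 mismatches allowed, 73.2% of these windows matched another member. In the library labelled WT it lay between Hist1h4b (8.19) and Hist1h4c (8.36), whereas in the library labelled KO only Hist1h4f and Hist2h4 were lower among the 12 H4 genes at the floor. The next lowest H4 differences were those of Hist2h4 (43 and 24 reads, -0.82) and Hist1h4f (81 and 52 reads, -0.63).

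H1, the linker histone that binds DNA between nucleosomes, is encoded by genes that share little sequence, a median of 4.90% of coding windows. Hist1h1c had 567 reads in either library, with values of 9.10 and 9.10. Hist1h1e went from 8.99 to 8.36 (-0.64, interval -0.84 to -0.44), and Hist1h1d from 8.25 to 7.79 (-0.46, interval -0.72 to -0.21). Hist1h1b was at 6.30 and 6.04, with an interval that held 0. Hist1h1c therefore made up 37.6% of the H1 sum in the library labelled WT and 47.1% in the library labelled KO.

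H2A and H2B genes that stand head to head were compared within each pair, since both then share a neighbourhood and a promoter stretch. Of 13 such pairs, 11 had both genes at the floor, with 175 to 301 bases between their annotated starts. In 11 of 11 the H2B gene's difference was above that of its H2A neighbour, by 0.20 to 1.15 with a median of 0.42. In 6 of 11 the counting intervals of the neighbours did not overlap. With the transcript GC trend removed it was above in 10 of 11 (median 0.31), and with the coding GC trend removed in 10 of 11 (median 0.41). Both trends are held constant beyond their outer bins, so neighbours of unlike GC content can have the same value subtracted. Hist1h2ai (transcript GC content 70.0%) and Hist1h2bl (63.3%) both had -0.453 subtracted, and their difference stayed at 0.421. In such pairs the removal cannot take out an effect of GC content. The exception under both trends was Hist2h2ac with Hist2h2be. Because H2A genes share most of their coding sequence, as do the pairs Hist1h2ao-Hist1h2bq and Hist1h2ap-Hist1h2br, the 11 pairs are not 11 separate measurements.

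**Figure D3:**
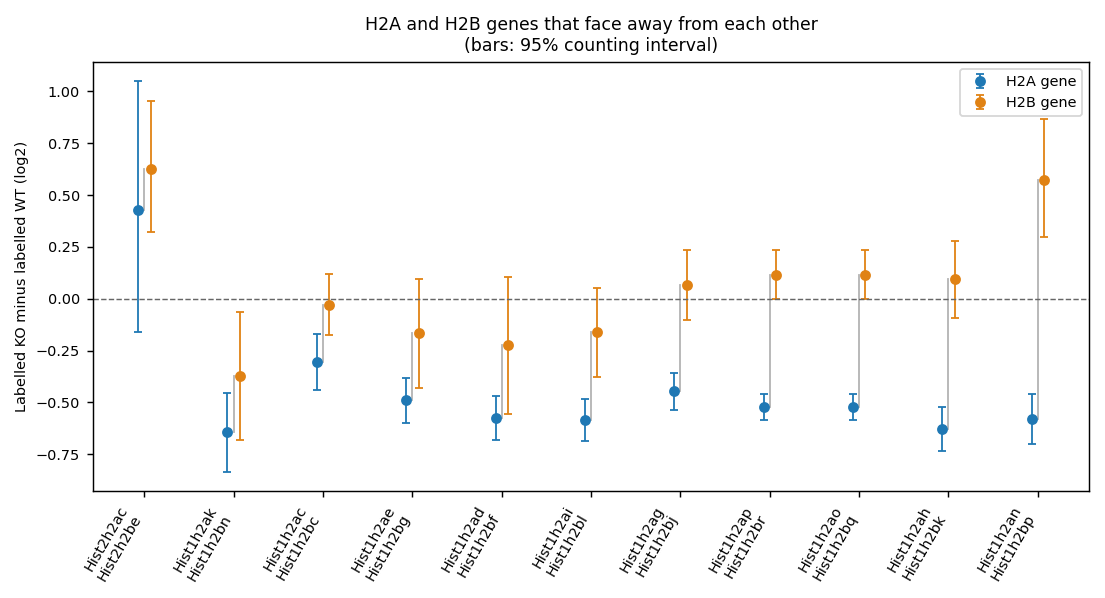
Difference (library labelled KO minus library labelled WT, log2) of the H2A gene (blue) and the H2B gene (orange) of the 11 head-to-head pairs with both genes at the floor; bars are exact 95% binomial intervals of the reads and grey lines join neighbours. In each pair the H2B gene lies above its H2A neighbour, by 0.20 to 1.15.

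The stretches between a pair of genes are shown for the largest and for a small within-pair difference among the pairs whose stretch could be read from RefSeq promoters (GRCm38.p6). Hist1h2an, at 10.42 and 9.84, and Hist1h2bp, at 7.40 and 7.97, differed by 1.15 in their change. Hist1h2ak, at 9.13 and 8.49, and Hist1h2bn, at 7.63 and 7.26, differed by 0.27. The sequences run on the plus strand from the start of the H2A gene, which is read to the left, to the start of the H2B gene, which is read to the right, over chr13:21787249-21787460 and chr13:21753913-21754075. Capitals mark TATAAA and CCAAT on either strand.
Hist1h2an-Hist1h2bp: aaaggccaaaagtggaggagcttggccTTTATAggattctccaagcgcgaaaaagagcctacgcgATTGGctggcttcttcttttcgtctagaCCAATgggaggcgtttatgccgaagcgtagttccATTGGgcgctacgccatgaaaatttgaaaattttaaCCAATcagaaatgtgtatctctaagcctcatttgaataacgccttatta
Hist1h2ak-Hist1h2bn: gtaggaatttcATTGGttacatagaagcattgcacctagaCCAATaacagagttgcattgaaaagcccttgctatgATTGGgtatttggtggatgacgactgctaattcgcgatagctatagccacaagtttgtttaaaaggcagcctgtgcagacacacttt
The first held 4 CCAAT and 1 TATAAA, and the second 3 CCAAT and 0 TATAAA. The RefSeq promoters of Hist1h2ak and Hist1h2bn, which reach past the second stretch, both held TATAAA.

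Over the 62 members matched to a RefSeq promoter, 250 bases before to 50 after the start, CCAAT on either strand was found in 85.5%, against 37.9% of all 27025 promoters of the same length. It was found in each of the 50 H1, H2A, H2B and H3 promoters and in 3 of 12 H4 promoters. TATAAA was found in 56.5% of the members and 14.2% of all promoters. ATTTGCAT, the octamer bound by Pou2f1 and known from H2B promoters, was found in 21.0% and 1.75%, in 7 of 18 H2A and 6 of 16 H2B promoters and in none of the H1, H3 and H4 promoters. Each motif was searched on both strands, matches of different motifs may share end letters and were counted separately, and a match describes the sequence only. Promoters of head-to-head neighbours overlap, such as those of Hist1h2ah and Hist1h2bk, which both held ATTTGCAT. The same site can thus be counted for both genes, and these shares are not shares of separate sites.

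The annotated 3′ end gave another view, because a longer annotated end is where a poly(A) tail could be added past the stem-loop. Members were put in 3 classes from the annotation alone. Those with more than 1 exon or over 150 bases after the stop codon (26 genes) had a median of -0.29, with 8 higher and 18 lower. Those with a shorter end (23 genes) had a median of -0.34, with 5 higher and 18 lower. Those whose annotation stops at the stop codon (13 genes) had a median of -0.52 and were lower in 13 of 13. The 5 members with an interval above 0 were all among the 26, of which 14 had an interval below 0. GC content went along with these classes, with medians of 49.2%, 60.7% and 66.9%, and with the transcript GC trend removed the medians were -0.17, 0.05 and -0.06. Within H2B, 6 of 9 long, 4 of 5 short and 0 of 4 coding-only genes were higher.

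**Figure D4:**
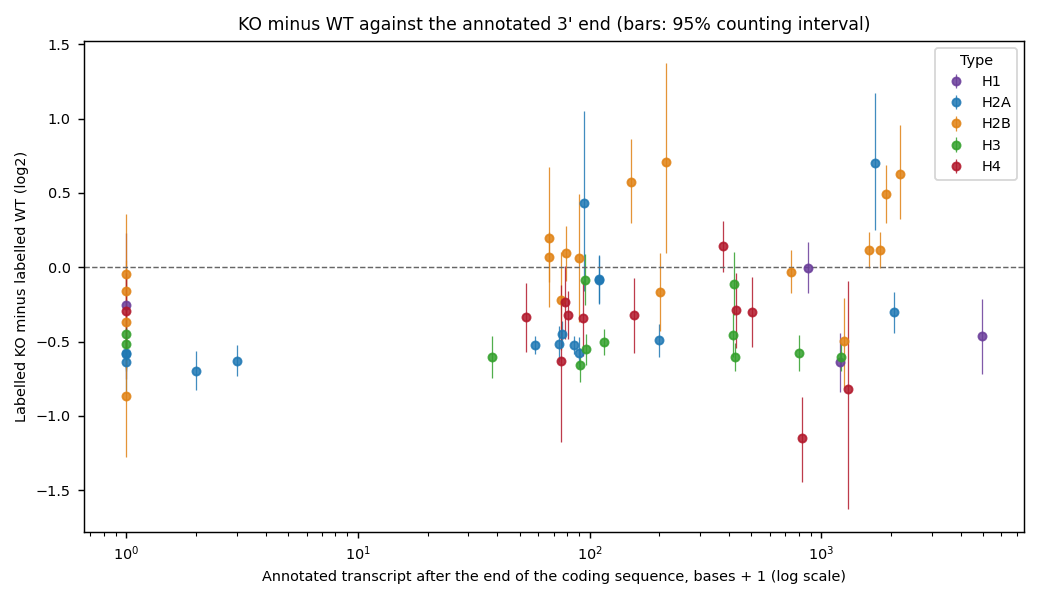
Difference (library labelled KO minus library labelled WT, log2) of the 62 members against the number of annotated bases after the coding sequence plus 1, on a log axis, coloured by histone type; bars are exact 95% binomial intervals. The 5 genes whose bars lie above 0 sit at 150 bases or more, where other genes lie below 0, down to Hist1h4d at -1.15.

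Across the 62 members the difference went down with transcript GC content (Pearson's r -0.28, Spearman's rho -0.32), with coding GC content (r -0.46, rho -0.50), a measure added after seeing the data, and with mean level (r -0.37, rho -0.37), and was nearly unrelated to the share of coding windows found elsewhere (r -0.12, rho -0.11). These are correlations across genes of the same pair of libraries, which share sequence and depth. The order of the members was alike in both libraries (r 0.98 between their log2 values).

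Other genes of the same processes were taken from lists of known members. S phase genes code for the replication machinery, and all 38 were at the floor. Their median was -0.02, with 18 higher and 20 lower and 0 past 2-fold. The highest were Dnmt1, the maintenance DNA methyltransferase (16.59 and 16.35), Uhrf1, its partner (15.58 and 15.13), and Lig1, the replication ligase (14.90 and 14.48). Their differences ran from -0.90 to 0.58. The 13 G2/M genes had a median of -0.04, with 6 higher and 7 lower. As deposited, the medians of H1, H2A, H3 and H4 lay below those of the S phase and G2/M lists, but the lists were also lower in GC content (medians 49.7% and 47.4%). With the transcript GC trend removed, the S phase median was -0.061, that of G2/M -0.046 and that of all histone members -0.061. By type, H1 (-0.33), H2A (-0.098), H3 (-0.17) and H4 (-0.073) lay below both lists and H2B (0.29) above. With the coding GC trend removed, the S phase median was -0.108. H1 (-0.08), H4 (0.08) and H2B (0.44) then lay above it, and H2A (-0.1135) and H3 (-0.1275) slightly below.

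Genes that make and end histone mRNA were mostly a little higher. Of 29 genes, 21 were higher and 8 lower, with a median of 0.13 and 0 past 2-fold, and with the transcript GC trend removed 16 of 27 were higher (median 0.06). The 3 with the highest mean values were Srrt, a partner of the cap-binding complex (15.37 and 15.13), Slbp, the stem-loop binding protein (14.65 and 14.69), and Sympk, a scaffold of the cleavage machinery (14.13 and 13.81). Slbp thus differed by 0.03.

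Replacement histones are made outside S phase as well and have polyadenylated mRNAs. Of 11 such genes, 10 were at the floor, with 6 higher, 4 lower and a median of 0.13, or -0.05 with the transcript GC trend removed. The highest were Cenpa, the centromeric H3 (15.89 and 16.17), H2afy, macroH2A (15.25 and 15.42), and H3f3b, an H3.3 gene (15.06 and 15.26). H1fx, a linker histone, was the one gene of these lists past 2-fold. It had 7.21 in the library labelled WT and 5.45 in the library labelled KO (-1.77, interval -2.31 to -1.30), or 152 and 44 reads. Its transcript GC content was 71.3%, where the trend is held constant, and with that trend removed its difference was -1.32. The 24 histone chaperone genes, which carry histones to DNA, had a median of -0.08, with 11 higher, 13 lower and 0 past 2-fold. Their highest were Nap1l4 (15.94 and 15.85), Nap1l1 (15.14 and 15.39) and Rbbp4 (15.30 and 15.10).

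**Figure D5:**
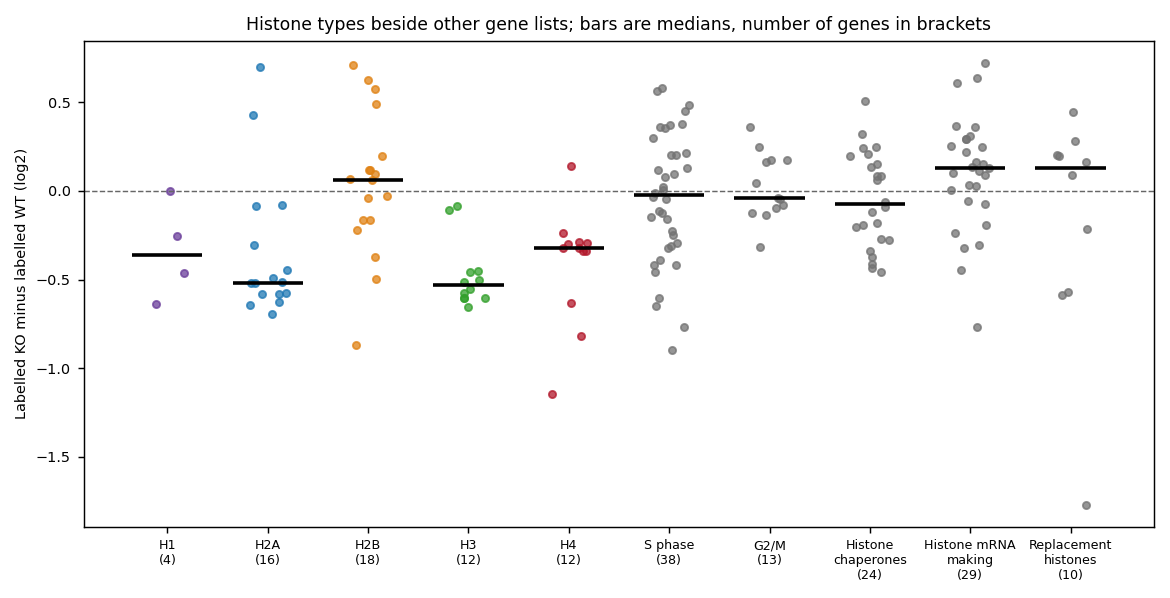
Difference (library labelled KO minus library labelled WT, log2) of the histone genes by type and of the lists of S phase, G2/M, histone chaperone, histone mRNA and replacement histone genes at the floor; points are genes, bars medians, and the number of genes stands in brackets. The medians of H1, H2A, H3 and H4, from -0.53 to -0.32, lie below those of the lists, from -0.08 to 0.13. These values have no GC trend removed. With the coding GC trend removed, the medians of H1 (-0.08) and H4 (0.08) lie above that of the S phase list (-0.108). Those of H2A (-0.1135) and H3 (-0.1275) then lie slightly below it.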

How the data were processed

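Th1 RNA from 1 culture labelled WT and 1 labelled Chi3l1 KO was sequenced as paired ends after oligo-dT bead selection (SENSE kit). Per the labels and the methods, the authors aligned reads with TopHat (version not given in the sources used here) to mm10, counted unique and multiple alignments, and used edgeR with a global normalization. The deposited unit is log2, read as log2(normalized count + 1): 99.96% of low values, back-transformed, lay within 0.1 of whole multiples of a step of 0.967 (WT) or 0.965 (KO). Rebuilt reads summed to 70754313 (WT) and 63090920 (KO), multiple alignments included. Genes with a mean log2 value of at least 5 were compared, and 2-fold was the threshold. Intervals are exact binomial (Clopper-Pearson, 95%) on rebuilt reads. The GC trend is the median difference in 20 bins of GENCODE M21 transcript GC content. It is held constant beyond the outer bins, where the most GC-rich members lie. Only genes reaching 8 on the log2 scale under the WT label and under the KO label entered the bins. Genes with lower values were corrected but did not shape the trend. H1, H2A, H2B, H3 and H4 sums use all members. Python 3.11.15, pandas 2.3.3 and scipy 1.17.1 were used. On simulated libraries of 24421 genes, 200 of 200 genes changed 3-fold or 4-fold were recovered. These were drawn from genes with at least 200 reads, with counting noise only. Smaller changes, shared reads and the GC trend were not simulated. All 68 members matched GENCODE and 62 RefSeq promoters. The members and lists were chosen with earlier results of these data known. Named members are, per type, the 4 with the highest mean and the lowest and highest difference, members past 2-fold, members with equal values or identical coding sequences, and 3 testis genes, and, per list, genes past 2-fold and the 3 with the highest mean. Alternatives were pseudocount 0.1, median-ratio and quantile scaling, other floors and folds, GC trends, and 1 gene per identical set. The result of 1 list of marker genes is not reported here.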

Additional observations from a re-analysis of the deposited data

How the results depend on the processing

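Depth and replication limit these results: with 1 library per genotype no difference was tested, and no library could be left out. No paired analysis was possible because each group held 1 sample. All 30 named members at the floor stayed within their counting intervals with a pseudocount of 0.1, when scaled by median ratios and when quantile normalized. Removing the transcript GC trend changed the median of the histone genes from -0.33 to -0.061, and removing the coding GC trend, chosen after seeing the data, to 0.066. The summed ratios then became, for the transcript and the coding trend, -0.092 and -0.095 for H2A, 0.15 and 0.42 for H2B and -0.23 and -0.12 for H3, and for H4 -0.058 and 0.11, while H1 became 0.039 under the coding trend and -0.57 without Hist1h1c. Among named members whose counting interval lay to one side of 0, sign changed for Hist1h2ag (0.006), Hist1h3h (0.002), Hist1h4m (0.11) and Hist1h4n (0.050) under the transcript trend, and for Hist1h4c (0.097), Hist1h4m (0.069) and Hist1h4n (0.086) under the coding trend. The counts of members past the fold, 0 higher and 1 lower, became 1 and 3 with no floor, 3 and 12 at 1.5-fold and 2 and 0 under the coding trend, and 0 were lower at 3-fold or at a floor of 8. Shares over all genes were not computed at these settings, so these counts show only how the members depend on the setting. The median of the S phase genes became 0.052 under quantile normalization and -0.11 under the coding trend, that of the histone mRNA genes 0.19 under quantile normalization and 0.061 under the transcript trend, and that of the chaperone genes 0.0045 under quantile normalization. The median of the replacement histones, 0.13, became 0.17 under quantile normalization, -0.045 under the transcript trend, 0.11 under the coding trend, 0.092 with no floor and 0.16 at a floor of 8. The cause of these shifts was not tested.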
